A study of Mus musculus with 16 samples.

Results

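Purine and pyrimidine synthesis enzymes were followed by gene symbol across germinal centre B cells of mouse lymph nodes. Of the 10 symbols sought (Ppat, Paics, Gart, Atic, Cad, Umps, Impdh2, Gmps, Ctps and Adsl), 8 had a row among the 9443 genes of the count table, and the RNA of Gmps and Adsl, which had no row, was not analysed here. The 16 libraries formed 4 groups of 4: anti-CD40 LZ, isotype LZ, anti-CD40 DZ and isotype DZ. LZ and DZ are the light zone, where B cells meet helper T cells, and the dark zone, where they divide. All mice were wild type (WT), and cells were collected 4 h after anti-CD40, an antibody that triggers the receptor used by helper T cells, or after an isotype control antibody. The sources used here give no antibody dose, age, number of mice or sorting gates, nor whether libraries of a group came from different animals, so each p measures the spread between these libraries, which may be technical.

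Cells build purine rings step by step on the sugar phosphate PRPP until inosine monophosphate is reached, from which the adenine and guanine nucleotides branch. Pyrimidine rings are built first and then joined to PRPP to give uridine monophosphate, from which cytidine nucleotides follow. Both routes supply RNA and DNA synthesis in growing lymphocytes, several of their genes are known targets of Myc, and salvage enzymes recycle finished bases and nucleosides alongside them. The comparison of anti-CD40 with isotype asks how the RNA of these enzymes stood shortly after CD40 was engaged in each zone.

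Libraries held 493131 to 1473415 unique molecular identifiers (UMI, 1 per captured transcript molecule), so 1 UMI stood for 0.651 to 2.05 CPM (the UMI count relative to the scaled library size). Of 10 germinal centre B cell markers such as Bcl6, 9 were in the table, at summed levels of 4051 to 5459 CPM of the unscaled totals in anti-CD40 LZ, 4929 to 7405 in isotype LZ, 6021 to 7846 in anti-CD40 DZ and 6358 to 8336 in isotype DZ libraries. Of 10 T cell markers 1 (Lck) was in the table, of 13 myeloid and dendritic markers 2 (such as Lyz2), and of 10 stromal and follicular dendritic markers 2 (such as Vim). Anti-CD40 LZ library 4 had the highest level of Ppat, Gart, Atic, Impdh2 and Cad of all 16 libraries. On the log2 scale, anti-CD40 DZ library 4 lay above its group mean for all 7 tested enzymes, as did isotype LZ library 3. Results are also given without the libraries numbered 4. In bulk RNA, fewer cells carrying a transcript and less of it per cell cannot be told apart.

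Start sites were not measured; promoters are shown because most of these genes moved in the same direction in LZ cells. RefSeq windows (GRCm38.p6) from 250 bases before to 50 after the start site were searched for CACGTG, the E-box bound by Myc with Max, which reads the same on both strands. It stood in 3 of 11 windows of the 10 symbols (Ctps had more than 1 window) and in 7.15% of all 32851 windows. A form of the NF-kB site, GGGA and TTCC with any 2 bases between them on either strand, stood in 0 of the 11 and in 1.47% of all windows. The 3 windows with the E-box in capitals follow, each read along its gene's own strand. They are chr5:76951052-76951351 (plus strand), chr1:71556906-71557205 (plus strand) and chr9:108560186-108560485 (plus strand).
Paics: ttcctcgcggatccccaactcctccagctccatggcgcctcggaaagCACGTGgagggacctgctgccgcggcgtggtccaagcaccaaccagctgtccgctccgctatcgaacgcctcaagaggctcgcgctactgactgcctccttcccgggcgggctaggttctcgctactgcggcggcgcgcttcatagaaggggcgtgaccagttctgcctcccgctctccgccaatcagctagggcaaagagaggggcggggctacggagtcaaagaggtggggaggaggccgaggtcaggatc
Atic: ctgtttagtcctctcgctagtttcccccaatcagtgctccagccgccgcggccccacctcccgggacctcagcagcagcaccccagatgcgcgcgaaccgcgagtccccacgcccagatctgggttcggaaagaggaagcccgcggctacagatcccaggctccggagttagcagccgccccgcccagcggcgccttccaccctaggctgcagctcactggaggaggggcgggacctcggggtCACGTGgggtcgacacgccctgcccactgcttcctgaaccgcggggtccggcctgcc
Impdh2: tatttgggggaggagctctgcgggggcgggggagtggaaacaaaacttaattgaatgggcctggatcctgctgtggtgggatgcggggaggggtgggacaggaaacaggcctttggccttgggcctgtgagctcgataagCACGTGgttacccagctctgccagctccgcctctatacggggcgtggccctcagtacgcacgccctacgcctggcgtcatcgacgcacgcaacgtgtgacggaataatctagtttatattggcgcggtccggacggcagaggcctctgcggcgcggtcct
Counted from the start site as 0, the E-box began at -203 in Paics, at -7 in Atic and at -110 in Impdh2. Paics and Ppat lie head to head on chromosome 5, with RefSeq start sites 276 bases apart and GENCODE vM21 gene bodies that overlap by 272 bases at their 5′ ends. The E-box upstream of Paics therefore lies 479 bases inside Ppat. Windows without the motif say only that these letters were not found there. In the LZ comparison given below, Gart, Cad and Ctps rose without an E-box in their windows. Paics held an E-box but did not reach an adjusted p under 0.05 there. Whether the motif bears on the change was not tested.

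Anti-CD40 raised 5 of the 7 tested enzymes in LZ cells, and none fell. Gart, Atic, Impdh2, Cad and Ctps rose between 2.12-fold and 2.51-fold, which spans the purine ring, its guanine branch, the start of the pyrimidine route and cytidine triphosphate. Paics was higher in each anti-CD40 library without passing, and Umps, the sparsest of the 7, did not pass. Of all 6824 tested genes 10.8% rose and 8.24% fell in this comparison (edgeR quasi-likelihood test, Benjamini-Hochberg adjusted p under 0.05 over all tested genes). The median log2 fold change of the 7 enzymes was 1.20, against 0.01 over all tested genes. Over all genes 740 rose and 562 fell; with upper quartile factors these were 596 and 758 with a median of -0.10, and with library totals 579 and 774 with a median of -0.11, while the same 5 enzymes rose under both.

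In the purine route, Ppat encodes the enzyme of the first committed step, which places an amino group on PRPP. Ppat lies on chromosome 5 at 76913249 to 76951578 of GRCm38. Its RNA was sparse, at 107 UMI over all 16 libraries, and the low-count filter left it out of the test. Anti-CD40 LZ libraries 1 to 4 held 11.2, 20.5, 15.8 and 23.7 CPM of Ppat, against 4.03, 4.77, 11.2 and 7.05 CPM in isotype LZ libraries 1 to 4. The groups met at 11.2 CPM without overlapping, and the counts behind them were 49 UMI after anti-CD40 and 16 UMI after isotype. An exact permutation test over the 70 arrangements of 4 against 4 libraries gave a two-sided p of 0.0286, the smallest it allows, and 0.0572 adjusted over 4 such tests. With no low-count filter the log2 fold change of Ppat was 1.41 (SE 0.43, edgeR adjusted p = 0.0306).

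Gart encodes a trifunctional protein that carries out several of the following ring-building steps. It lies on chromosome 16 at 91621186 to 91646952. Gart stood at 216, 279, 174 and 309 CPM in anti-CD40 LZ libraries 1 to 4, against 101, 71.6, 96.9 and 119.9 CPM in isotype LZ libraries 1 to 4. Every anti-CD40 library was above every isotype library, and the rise was 2.51-fold (log2 fold change 1.33, SE 0.24, edgeR adjusted p = 7.77e-04). An antisense gene, Gm15964, overlaps the 3′ end of Gart and is not in the table; whether counting used strand is not given in the sources used here.

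Paics, the neighbour of Ppat, encodes a protein that performs a pair of middle steps (chromosome 5, 76951307 to 76967509). Paics held 191, 167, 152 and 144 CPM in anti-CD40 LZ libraries, against 136, 111, 121 and 70.5 CPM in isotype LZ libraries. The groups did not overlap, although the lowest value after anti-CD40 and the highest after isotype were close. The log2 fold change was 0.57 (SE 0.21, 95% interval 0.13 to 1.01) and its edgeR adjusted p of 0.0672 missed the threshold.

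Atic encodes the bifunctional enzyme that closes the ring and yields inosine monophosphate (chromosome 1, 71557150 to 71579631). Its levels were 156, 224, 189 and 325 CPM in anti-CD40 LZ libraries, against 91.4, 74.8, 98.8 and 111 CPM in isotype LZ libraries. Anti-CD40 LZ library 4 was the highest of all, and the groups did not overlap. Atic rose by 1.25 on the log2 scale (SE 0.27, edgeR adjusted p = 0.00345).

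Impdh2 encodes the dehydrogenase that commits inosine monophosphate to guanine nucleotides, the major form in proliferating lymphocytes (chromosome 9, 108560286 to 108565584). It reached 313, 278, 254 and 353 CPM in anti-CD40 LZ libraries, against 148, 105, 147 and 119.9 CPM in isotype LZ libraries. The lowest anti-CD40 library stood well above the highest isotype library. The log2 fold change was 1.20 with the smallest error of the group (SE 0.16, edgeR adjusted p = 4.07e-05). The 3′ end of Impdh2 overlaps that of Ndufaf3 on the other strand by 48 bases, and a processed pseudogene, Impdh2-ps, is annotated. How the counting treated reads shared with Ndufaf3 or Impdh2-ps was not checked here.

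In the pyrimidine route, Cad encodes the large multifunctional protein that starts ring synthesis (chromosome 5, 31054780 to 31078479). Cad stood at 94.6, 145, 109 and 185 CPM in anti-CD40 LZ libraries, against 76.6, 49.3, 63.4 and 61.7 CPM in isotype LZ libraries. The groups did not overlap, and Cad rose by 1.08 on the log2 scale (SE 0.27, edgeR adjusted p = 0.00889). Ctps encodes CTP synthase, which turns uridine triphosphate into cytidine triphosphate (chromosome 4, 120539868 to 120570276). Its levels were 86.6, 147, 95.8 and 131 CPM in anti-CD40 LZ libraries, against 41.7, 47.7, 48.5 and 56.4 CPM in isotype LZ libraries. Again no library of one group lay within the other, and Ctps rose by 1.24 (log2, SE 0.25, edgeR adjusted p = 0.00204).

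Umps encodes the bifunctional enzyme that makes uridine monophosphate, the end of the ring-building route (chromosome 16, 33954782 to 33967038). It held 17.6, 7.88, 11.3 and 4.75 CPM in anti-CD40 LZ libraries, against 10.7, 17.5, 18.6 and 3.53 CPM in isotype LZ libraries. The groups overlapped fully, on 29 and 31 UMI. The log2 fold change was -0.27 with a 95% interval of -1.33 to 0.80. A rise of the size estimated for Gart, Atic, Ctps, Impdh2 or Cad lay outside that interval. The values within it, falls and smaller rises, cannot be told apart from no change at this depth.

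**Figure D1:**
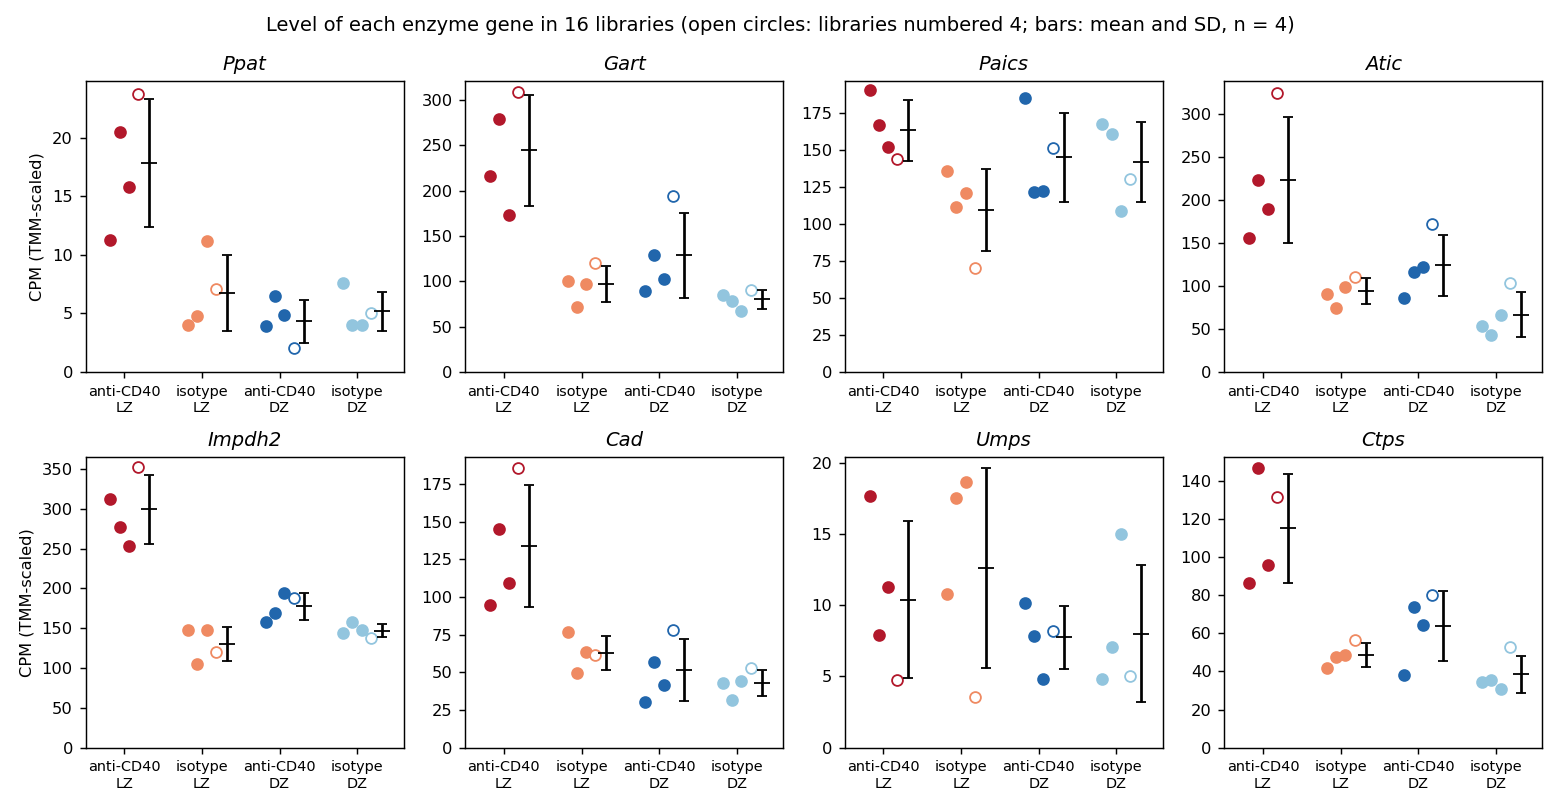
Level of the 8 enzyme genes in CPM (vertical axes, each from 0) in the 4 libraries of anti-CD40 LZ, isotype LZ, anti-CD40 DZ and isotype DZ; open circles are the libraries numbered 4, and bars give the mean and SD (n = 4). Gart, Atic, Impdh2, Cad and Ctps stood higher in every anti-CD40 LZ library than in any isotype LZ library, while Umps overlapped between groups.

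Across the tested enzymes, 6 of 7 had LZ groups that did not overlap with anti-CD40 higher, against 11.4% of all tested genes. The 5 calls were made under each of 18 alternatives, including the fit without the libraries numbered 4 and the fits that left out any 1 LZ library. Myc itself averaged 269 ± 57.7 CPM in anti-CD40 LZ libraries and 32.5 ± 13 CPM in isotype LZ libraries (SD, n = 4 each). Other measures moved with treatment in the LZ too. Summed light zone markers (8 genes, Myc among them) ran from 4942 to 6505 CPM of the unscaled totals after anti-CD40 and from 1479 to 2218 CPM after isotype. Nfkbia was the largest of the 8, averaging 3152 CPM after anti-CD40 and 755 CPM after isotype. Cd83, Cd86, Cd40, Icam1 and Myc had higher means after anti-CD40 too. Egr1 (52.5 against 99.2 CPM) and Egr2 (8.56 against 10.5 CPM) had lower means. Summed dark zone markers (8 genes) ran from 351 to 519 CPM of the unscaled totals after anti-CD40 and from 935 to 1003 CPM after isotype. The 1 T cell marker present, Lck, ran from 68.4 to 87.3 CPM after anti-CD40 and from 93.7 to 144 CPM after isotype. The 2 stromal markers present, Vim and Des, summed to 29.1 to 88.5 CPM after anti-CD40 and to 63.6 to 201 CPM after isotype. Cd3e and Cd4 of the T cell markers and Cxcl13 and Col1a1 of the stromal markers were among those with no row in the table. The 2 myeloid markers ran from 23.9 to 32.8 CPM after anti-CD40 and from 11.4 to 43.2 CPM after isotype. Summed, 4 plasma cell markers ran from 662 to 840 CPM after anti-CD40 and from 358 to 978 CPM after isotype. These 4 moved in opposite directions. Irf4 averaged 368 CPM after anti-CD40 and 46.3 CPM after isotype. Jchain (267 against 441 CPM) and Xbp1 (96.2 against 146 CPM) were lower after anti-CD40, and Sdc1 was sparse (14 and 10 UMI). The part of these shifts in the enzyme results was not tested.

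In DZ cells none of the 7 tested enzymes passed the edgeR test without a replicate block. Of all tested genes 2.39% did, so 0 of 7 does not set the enzymes apart from them. All 7 fitted changes were above 0, as were 48.6% over all tested genes. Their median log2 fold change was 0.26, against -0.01 over all tested genes, and 3 (Atic, Gart and Ctps) had an unadjusted p under 0.05. DESeq2 and limma-voom also called 0 of the 7. With the replicate number as a block, edgeR called 427 genes, among them 3 of the enzymes: Atic, Gart and Ctps (adjusted p = 6.11e-04, 0.0262 and 0.0274). The labels do not say what the replicate number marks. Deviations of same-numbered DZ libraries correlated at -0.205 to 0.579. Atic stood at 86.0, 117, 122 and 172 CPM in anti-CD40 DZ libraries 1 to 4, against 54.0, 43.6, 66.1 and 103 CPM in isotype DZ libraries 1 to 4. The highest isotype library, number 4, lay above the lowest anti-CD40 library, number 1. The log2 fold change was 0.89 (SE 0.27, 95% interval 0.32 to 1.46, edgeR adjusted p = 0.116). Without the libraries numbered 4 Atic passed, at 1.0 (edgeR adjusted p = 0.00662), as it did without isotype DZ library 4 alone (1.19, edgeR adjusted p = 0.0207).

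Gart held 89.1, 129, 103 and 195 CPM in anti-CD40 DZ libraries, against 84.4, 78.0, 67.1 and 90.5 CPM in isotype DZ libraries. Only library 1 after anti-CD40 fell inside the isotype range, and library 4 was far above the rest (0.67, SE 0.24, interval 0.17 to 1.17, edgeR adjusted p = 0.214). Ctps held 38.3, 73.5, 64.3 and 79.9 CPM in anti-CD40 DZ libraries, against 34.6, 35.5, 31.0 and 52.8 CPM in isotype DZ libraries. Its log2 fold change was 0.73 (SE 0.25, interval 0.20 to 1.25, edgeR adjusted p = 0.195), and it passed without anti-CD40 DZ library 1 (0.94, edgeR adjusted p = 0.0487).

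Impdh2 levels were close in DZ cells, at 158, 169, 195 and 188 CPM after anti-CD40 and 144, 158, 148 and 138 CPM after isotype. The change of Impdh2 was 0.26 (log2, SE 0.16), with an interval of -0.06 to 0.59 that lay below its LZ estimate of 1.20 (edgeR adjusted p = 0.626). Cad held 30.5, 56.6, 41.8 and 77.8 CPM in anti-CD40 DZ libraries, against 42.9, 31.4, 44.1 and 52.8 CPM in isotype DZ libraries, and these overlapped (0.24, interval -0.34 to 0.83). Paics was at 185, 122, 122 and 152 CPM after anti-CD40 and 167, 161, 109 and 131 CPM after isotype (log2 fold change 0.03, interval -0.40 to 0.46). Umps was at 10.2, 7.81, 4.83 and 8.19 CPM after anti-CD40 and 4.84, 7.09, 15 and 5.03 CPM after isotype (0.01, interval -0.997 to 1.03). The signs of the Paics and Umps values turned under upper quartile factors, and that of Umps also with DESeq2 and RLE factors. Ppat counted 5, 10, 3 and 1 UMI in anti-CD40 DZ libraries and 11, 4, 4 and 4 UMI in isotype DZ libraries, with overlapping levels (exact permutation p = 0.457, adjusted p = 0.514 over 4 tests). In anti-CD40 DZ library 4 all 7 tested enzymes stood above their group mean on the log2 scale, by 0.35 on average.

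**Figure D2:**
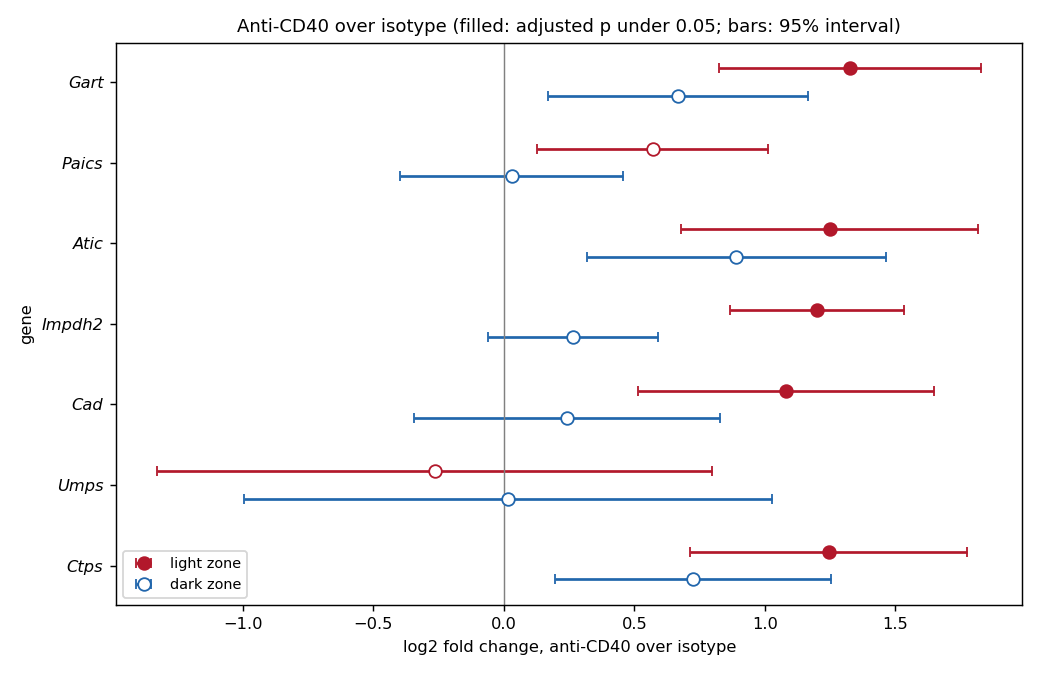
Log2 fold change of anti-CD40 over isotype (horizontal axis) for the 7 tested enzymes in light zone and dark zone cells; bars are 95% intervals of the edgeR fit and filled circles passed at an adjusted p under 0.05. In the light zone 5 genes passed and in the dark zone none did. The intervals of the zones overlapped for every enzyme but Impdh2.

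The difference of the anti-CD40 change between zones, LZ minus DZ, was tested directly. None of the 7 enzymes passed, in a comparison where 1 of 6824 genes (0.0147%) did, and 2 of the 7 (Impdh2 and Cad) were among the 586 genes with an unadjusted p under 0.05. Impdh2 had a difference of 0.94 (log2, SE 0.22, 95% interval 0.47 to 1.40, edgeR adjusted p = 0.202). With DESeq2 Impdh2 passed (0.93, adjusted p = 0.0184), in a test that called 34 genes. It also passed by edgeR with the replicate number as a block (0.94, adjusted p = 0.022), in a fit that called 107 genes. Cad had a difference of 0.84 (SE 0.39, interval 0.02 to 1.66, edgeR adjusted p = 0.568). For Gart the difference was 0.66 (interval -0.05 to 1.37), for Paics 0.54 (-0.08 to 1.16), for Ctps 0.52 (-0.23 to 1.27) and for Atic 0.36 (-0.45 to 1.16). For Umps it was -0.28 (-1.77 to 1.21). The edgeR test without a replicate block thus did not show that any of the 7 responded differently in the zones. The widths of the intervals do not show that the 7 responded alike.

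Between zones under isotype, no enzyme passed the edgeR test. Of all tested genes 2.23% did, so 0 of 7 does not set the enzymes apart here either. The fitted LZ over DZ differences ran from -0.37 in Paics to 0.65 in Umps, 0 of 7 had an unadjusted p under 0.05, and DESeq2 and limma-voom called 0. Cad averaged 62.8 ± 11.1 CPM in isotype LZ libraries and 42.8 ± 8.78 CPM in isotype DZ libraries (SD, n = 4 each; log2 difference 0.56, interval -0.03 to 1.15). Impdh2 averaged 130.01 ± 21.1 CPM in isotype LZ libraries and 147 ± 8.34 CPM in isotype DZ libraries (-0.18, interval -0.51 to 0.16). The upper bound for Impdh2 lay below the zone difference of 0.76 estimated after anti-CD40.

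After anti-CD40, Gart, Atic, Impdh2, Cad and Ctps were higher in LZ than in DZ cells, 5 of 7 tested enzymes against 6.14% of all tested genes, and none was lower, against 5.38%. Over all genes 419 were higher and 367 lower; with upper quartile factors these were 341 and 472, and with library totals 297 and 530. This comparison uses the same anti-CD40 LZ libraries as the treatment comparison, so the results are not independent. Cad differed most, at 134 ± 40.4 CPM in anti-CD40 LZ libraries and 51.7 ± 20.5 CPM in anti-CD40 DZ libraries (SD, n = 4 each; log2 difference 1.40, SE 0.27, edgeR adjusted p = 0.00216). Impdh2 was at 299 ± 43.3 CPM in LZ and 177 ± 17.1 CPM in DZ libraries (0.76, SE 0.16, edgeR adjusted p = 0.00319). Cad, Impdh2 and Ctps had zones that did not overlap, 3 of 7 enzymes against 8.59% of tested genes.

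Gart (0.94, SE 0.23, edgeR adjusted p = 0.0121), Atic (0.87, SE 0.27, adjusted p = 0.0395) and Ctps (0.86, SE 0.24, adjusted p = 0.0252) passed less firmly between zones after anti-CD40. Without anti-CD40 LZ library 2, anti-CD40 DZ library 1 or anti-CD40 DZ library 3 none of these 3 passed by edgeR (adjusted p from 0.0632 to 0.160). Without anti-CD40 LZ library 4, Atic (0.159) and Ctps (adjusted p = 0.0710) did not pass, and without anti-CD40 DZ library 2 Atic did not (adjusted p = 0.123). Cad and Impdh2 passed in each of these fits. Ppat held 17.8 ± 5.48 CPM in anti-CD40 LZ and 4.32 ± 1.86 CPM in anti-CD40 DZ libraries, without overlap (SD, n = 4 each; exact permutation p = 0.0286, adjusted p = 0.0572 over 4 tests). Umps (0.37, interval -0.69 to 1.44) and Paics (0.17, interval -0.26 to 0.60) did not pass.

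**Figure D3:**
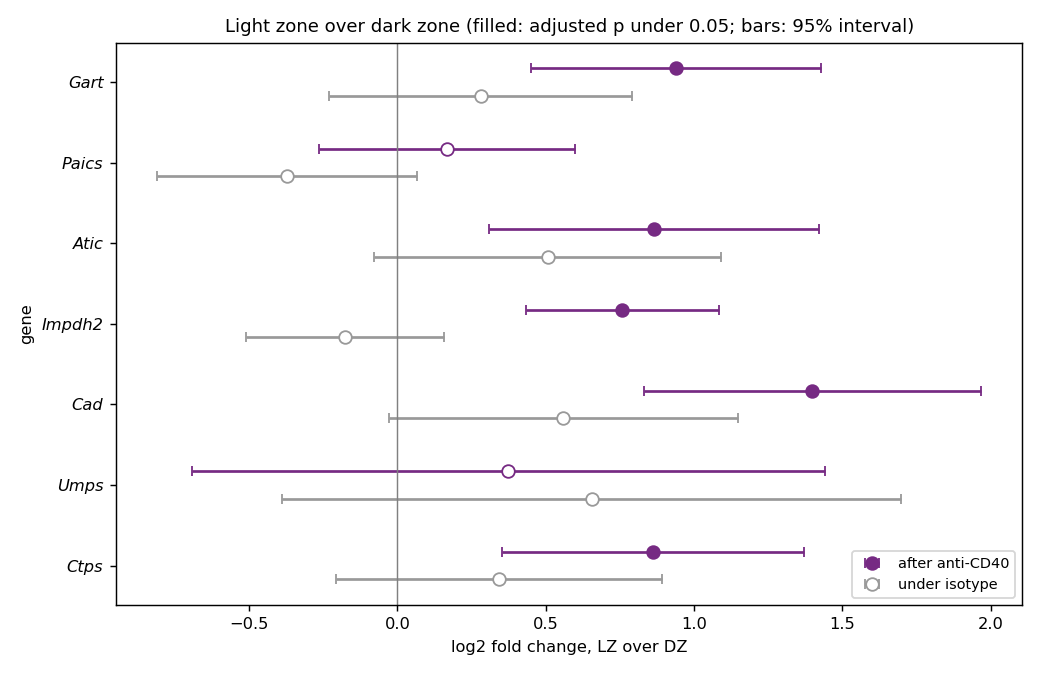
Log2 fold change of LZ over DZ (horizontal axis) for the 7 tested enzymes after anti-CD40 and under isotype; bars are 95% intervals and filled circles passed at an adjusted p under 0.05. After anti-CD40 the 5 filled values ran from 0.76 to 1.40, and under isotype none was filled.

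Ordered by group mean, Gart, Atic and Ctps shared one sequence of levels: anti-CD40 LZ, anti-CD40 DZ, isotype LZ and isotype DZ, from high to low. Of the neighbours in that order, anti-CD40 LZ and anti-CD40 DZ differed by the edgeR test, anti-CD40 DZ and isotype LZ overlapped and were not compared by a test, and isotype LZ and isotype DZ did not pass. Impdh2 and Paics instead had their lowest mean in isotype LZ cells, and Cad and Umps their lower means in the DZ groups. The coefficient of variation within a group was 28.4 to 59.9% for Umps and 5.67 to 16.3% for Impdh2.

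Other genes of these routes were taken as lists. Of 4 other tested purine genes 1 rose in LZ cells: Impdh1, the second inosine monophosphate dehydrogenase, at 78.1 ± 36.1 CPM after anti-CD40 and 31.6 ± 13.5 CPM after isotype (SD, n = 4 each; log2 fold change 1.31, SE 0.35, edgeR adjusted p = 0.0121). Its call was lost without anti-CD40 LZ library 2, anti-CD40 LZ library 4 or isotype LZ library 1 (adjusted p = 0.0528, 0.0555 and 0.0532). Pfas, which adds a nitrogen in the middle of the purine route, was at 27.7 ± 9.07 CPM after anti-CD40 and 16.8 ± 6.85 CPM after isotype and did not pass (0.71, SE 0.36, edgeR adjusted p = 0.187). Dhodh, the mitochondrial step of the pyrimidine route, was at 38.1 ± 5.45 CPM after anti-CD40 and 25.2 ± 6.11 CPM after isotype (0.59, SE 0.26, edgeR adjusted p = 0.121). None of 4 tested PRPP supply genes passed in any of the 5 comparisons, and 0 had an unadjusted edgeR p under 0.05. Of all 6824 tested genes, 586 to 2120 had such a p, depending on the comparison. Over all 10 lists other than the chosen enzymes, 16 of 59 tested genes rose in LZ cells, against 10.8% of all tested genes, and 5 fell, against 8.24%, with a median log2 fold change of 0.29. In DZ cells 0 of the 59 passed by edgeR, against 2.39% of all tested genes. An unadjusted edgeR p under 0.05 was found for 10 of the 59 and for 746 of all 6824 tested genes.

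Folate enzymes, which supply one-carbon units to the purine ring, rose in 5 of 7 tested cases in LZ cells and none fell. Of all tested genes 10.8% rose and 8.24% fell. The median log2 fold change of the folate list was 1.15, against 0.01 over all tested genes. Shmt1, the cytosolic serine hydroxymethyltransferase, averaged 82.5 ± 10.9 CPM after anti-CD40 and 22.7 ± 8.20 CPM after isotype (SD, n = 4 each; 1.84, SE 0.28, edgeR adjusted p = 1.44e-04). Shmt2, its mitochondrial counterpart, averaged 716 ± 174 CPM after anti-CD40 and 246 ± 7.65 CPM after isotype (1.54, SE 0.17, edgeR adjusted p = 7.54e-06). Mthfd2, a mitochondrial dehydrogenase of this route, averaged 226 ± 75.2 CPM after anti-CD40 and 102 ± 13.3 CPM after isotype (1.15, SE 0.25, edgeR adjusted p = 0.00302). Mthfd1, a cytosolic enzyme of the route, rose by 0.86 (SE 0.21, edgeR adjusted p = 0.00709).

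Kinases that charge nucleotides rose in 4 of 11 cases in LZ cells and none fell, against 10.8% and 8.24% of all tested genes. Among them were Nme1 (0.89, SE 0.15, edgeR adjusted p = 5.17e-04) and Nme2 (0.87, SE 0.13, adjusted p = 1.21e-04), which make triphosphates, and Guk1 (0.69), which phosphorylates guanine nucleotides. Guk1 did not pass without anti-CD40 LZ library 2 (edgeR adjusted p = 0.0766) or without the libraries numbered 4 (adjusted p = 0.0502).

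The salvage lists are short, and pooled over both lists the counts lie near the 10.8% of all tested genes that rose and the 8.24% that fell in LZ cells. Of 6 purine salvage genes 1 rose and none fell: Aprt, which recycles adenine, at 452 ± 87.3 CPM after anti-CD40 and 188 ± 25.5 CPM after isotype (SD, n = 4 each; 1.26, SE 0.18, edgeR adjusted p = 8.59e-05). Of 7 pyrimidine salvage genes 1 rose and 2 fell. Uck2, a uridine and cytidine kinase, rose (1.33, SE 0.25, edgeR adjusted p = 0.00115), while Tk1, the thymidine kinase of dividing cells, fell to 109.9 ± 9.22 CPM after anti-CD40, against 207 ± 17.2 CPM after isotype (-0.91, SE 0.17, edgeR adjusted p = 7.41e-04). Tk2, the mitochondrial thymidine kinase, fell too (-1.31, SE 0.28, edgeR adjusted p = 0.00321).

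Of 6 deoxynucleotide genes 2 rose and 1 fell in LZ cells, against 10.8% and 8.24% of all tested genes, with a median of -0.39. Dctpp1, which degrades excess deoxycytidine triphosphate, rose to 474 ± 58 CPM after anti-CD40, against 192 ± 44.4 CPM after isotype (SD, n = 4 each; 1.30, SE 0.18, edgeR adjusted p = 5.13e-05). Dctd, the deoxycytidylate deaminase, rose on 102 UMI after anti-CD40 and 14 UMI after isotype (2.70, SE 0.60, edgeR adjusted p = 0.00398). Samhd1, which breaks down deoxynucleotides, fell to 159.8 ± 5.90 CPM after anti-CD40, against 404 ± 162 CPM after isotype (-1.33, SE 0.26, edgeR adjusted p = 0.00141).

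Of 9 breakdown and interconversion genes none rose in LZ cells and 1 fell, which is near the shares of all tested genes (10.8% and 8.24%). The gene was Nt5e, which encodes the surface nucleotidase CD73 (-1.32, SE 0.32, edgeR adjusted p = 0.00753). Gmpr, which returns guanine to inosine nucleotides, was lower in LZ than in DZ cells under isotype, on 5 UMI in isotype LZ and 72 UMI in isotype DZ libraries (-2.96, SE 0.73, edgeR adjusted p = 0.0364), a call lost without any 1 of 6 of the 8 libraries. Of 4 nucleoside transporter genes 2 rose and 1 fell. Slc29a1 rose (1.29, SE 0.31, edgeR adjusted p = 0.00672), Slc29a2 counted 62 UMI after anti-CD40 and 3 UMI after isotype, and Slc28a2 fell (-1.10, SE 0.22, edgeR adjusted p = 0.00160). Ada, the adenosine deaminase, did not pass for treatment but was lower in LZ than in DZ cells, at 113 ± 40.4 CPM in isotype LZ and 294 ± 62.9 CPM in isotype DZ libraries (SD, n = 4 each; -1.38, SE 0.26, edgeR adjusted p = 0.00651).

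Between zones after anti-CD40, 15 of the 59 listed genes were higher in LZ cells, against 6.14% of all tested genes, and 7 lower, against 5.38%. Pfas stood at 27.7 ± 9.07 CPM in anti-CD40 LZ and 11.2 ± 4.80 CPM in anti-CD40 DZ libraries (SD, n = 4 each; log2 difference 1.24, SE 0.36, edgeR adjusted p = 0.0289), a call lost under 7 of 17 alternatives. Impdh1 stood at 78.1 ± 36.1 CPM in anti-CD40 LZ and 29.2 ± 8.31 CPM in anti-CD40 DZ libraries (1.46, edgeR adjusted p = 0.00773). Dhodh stood at 38.1 ± 5.45 CPM in anti-CD40 LZ and 19.5 ± 4.62 CPM in anti-CD40 DZ libraries (0.97, SE 0.26, edgeR adjusted p = 0.0173), a call lost under 4 of 18. Aprt (1.13), Uck2 (1.12), Dctpp1 (1.20) and Slc29a1 (1.60) were higher in LZ cells too, while Ada (-1.40), Samhd1 (-1.45) and Nt5e (-1.71) were lower.

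**Figure D4:**
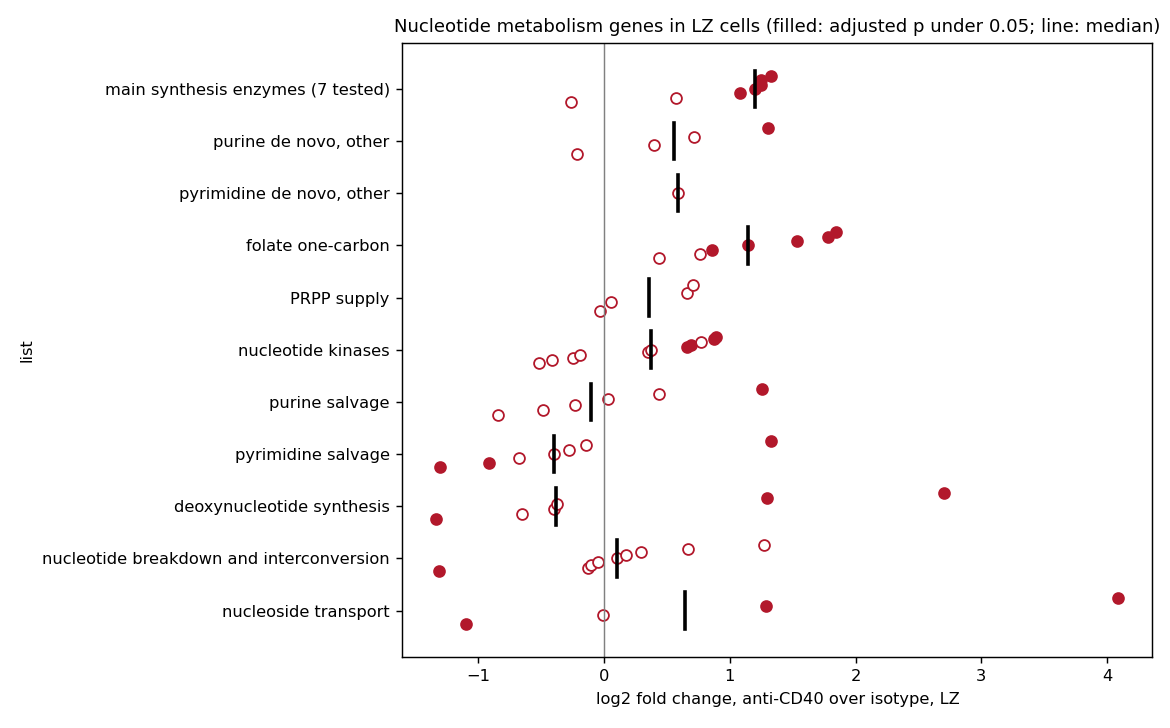
Log2 fold change of anti-CD40 over isotype in LZ cells (horizontal axis) for the tested genes of 11 lists of nucleotide metabolism; each circle is a gene, filled circles passed at an adjusted p under 0.05 and the line is the median of the list. The 5 filled synthesis enzymes lie between 1.08 and 1.33. The pyrimidine salvage, deoxynucleotide and transport lists hold filled genes on both sides of 0. The filled gene of the purine salvage list lies above 0.

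The genes outside nucleotide metabolism whose levels followed the 7 enzymes most closely were Cops7a, Basp1, Eif5a, Eftud2 and Zc3h8. Likeness was the root mean square difference, over 16 libraries, between a gene's centred log2 CPM and the mean centred log2 CPM of the 7 enzymes. It was 0.15 to 0.18 for these 5 of 6758 genes, against a median of 0.63, and 0.21 (Impdh2) to 0.69 (Umps) for the enzymes themselves. This is a description over libraries that the groups share, with no test. Cops7a averaged 159 CPM in anti-CD40 LZ, 73.9 CPM in isotype LZ, 81.8 CPM in anti-CD40 DZ and 65.6 CPM in isotype DZ libraries. Eif5a averaged 3336 CPM in anti-CD40 LZ, 1704 CPM in isotype LZ, 1810 CPM in anti-CD40 DZ and 1385 CPM in isotype DZ libraries.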

How the data were processed

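RNA of sorted germinal centre B cells was counted in 16 libraries, 4 per group. Per the labels' protocols, polyadenylated RNA was barcoded during reverse transcription, pooled and amplified linearly. The submitters' processing notes name cutadapt, STAR, HTSeq, DESeq2 and mm10, without versions. The authors deposited raw UMI counts, a normalized signal (the count divided by 1 size factor per library), regularized log2 values, log2 fold changes and adjusted p-values; only the counts entered tests here.

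The tests used edgeR 4.0.16 (R 4.3.3): filterByExpr (minimum count 10, leaving 6824 of 9443 genes with 98.6% of UMI), TMM scaling, 4 group means and robust quasi-likelihood tests, with Benjamini-Hochberg adjustment over all tested genes and a threshold of 0.05. Intervals (95%) used the quasi-likelihood F statistic. CPM were TMM-scaled, except marker sums, which used library totals. Pairs of libraries within a group differed by more than sampling noise (chi-square over its degrees of freedom, 1.73 to 11.7), so none was taken as a duplicate. The biological coefficient of variation was 24.6%. Ppat, below the filter, had an exact permutation test.

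Alternatives were DESeq2 1.42.0, limma-voom (limma 3.58.1), RLE, upper quartile and total scaling, no filter, 20 counts in 4 libraries, only the groups compared, a replicate block, each library left out, and the libraries numbered 4 left out. The 10 symbols, the lists and the naming rule (all members, Myc, up to 4 genes per list with the smallest adjusted p, which left those that passed in no comparison counted but not named, always Pfas, Impdh1 and Dhodh, and the 5 most similar genes) were chosen with earlier results of these data known. Positions are from GENCODE vM21 (GRCm38), promoters from RefSeq (GRCm38.p6); 10 of 10 symbols matched. Some named genes are not reported here. Figures used Matplotlib 3.10.9.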

Additional observations from a re-analysis of the deposited data

How the results depend on the processing

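The 5 enzymes called for anti-CD40 in the LZ kept direction and call under all 18 alternatives (5 to 6 called, Paics being added by the replicate block, at adjusted p = 0.00889). Over all enzymes and comparisons, 631 of 670 alternative values stayed on their side of the threshold with the same sign, 18 lost a call, 9 gained one and 12 changed sign. The sign changes were in DZ values near 0. Umps was at -0.020 with DESeq2, -0.0032 with RLE factors, -0.027 with upper quartile factors and -0.086 without the libraries numbered 4; leaving out 1 library gave -0.20 to 0.50. Paics was at -0.010 with upper quartile factors and -0.0039 without the libraries numbered 4, and leaving out 1 library gave -0.10 to 0.13.

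Same-numbered libraries did not deviate together in every pair (correlations of -0.205 to 0.657, and not every library correlated best with its own number), so the number was not taken as a pairing; the labels do not say what it marks. With it as a replicate block, the counts of genes called were 2013 in the LZ, 427 in the DZ, 107 for the difference, 433 between zones under isotype and 1533 after anti-CD40, and 3 enzymes (Atic, Gart, Ctps) passed in the DZ and 1 (Impdh2) for the difference. Without the replicate block the counts were 1302, 163, 1, 152 and 786. Enzymes called after anti-CD40 between zones numbered 3 with library totals, with no filter and with only the groups compared, and 2 to 5 with 1 library left out. DESeq2 called 34 genes and 1 enzyme for the difference, upper quartile factors 2 genes, and the fit without the libraries numbered 4 called 0. That last fit called 1 enzyme (Atic) in the DZ. Only the groups compared gave 101 genes between zones under isotype. With 1 library left out, genes called ran from 876 to 1240 in the LZ, 98 to 181 in the DZ, 0 to 2 for the difference, 72 to 151 under isotype and 480 to 726 after anti-CD40; enzymes called in the DZ ran from 0 to 1. The cause was not tested. Of 927 alternative values for other named genes 59 lost their call and none changed sign. Depth limits Ppat and Umps, at 107 and 125 UMI in all, and the stricter filter left Umps without a value.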

Other observations

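The authors' deposited table, which lists all 8 enzymes, gives 5 at an adjusted p under 0.05 for anti-CD40 in the LZ, 0 in the DZ, 0 between zones under isotype and 6 between zones after anti-CD40. Shares over all genes of that table were not counted here, so these counts have no background beside them. In the authors' deposited table Ppat is at a log2 fold change of 1.41 with an adjusted p of 0.0653 in the LZ, and at 1.92 with an adjusted p of 0.00829 for LZ over DZ after anti-CD40. In the unfiltered edgeR fit the LZ over DZ value of Ppat was 1.86 (SE 0.42, adjusted p = 0.00653).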
